A study of Homo sapiens with 12 samples.

Results

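The RNA of the axon guidance ligands and receptors was followed in HEK293T cells, a human embryonic kidney line, that carried different forms of EZH2. The genes were taken by name, as every row of the count table that belongs to the semaphorin, plexin, neuropilin, ephrin, Eph receptor, Slit, Robo, netrin or netrin receptor families, which gave 64 of 14438 genes. Of 72 family genes searched for, 8 were not analysed here (SEMA5A, SEMA5B, EPHA1, ROBO4, NTN5, NTNG1, DCC and UNC5D). The 12 libraries came from cells infected with lentivirus and selected with blasticidin. There were 3 replicates each of EZH2 WT, of the gain-of-function (GOF) mutants EZH2 Y641F and EZH2 A677G, and of the loss-of-function (LOF) double mutant EZH2 H689A/F667I. All lines also kept the EZH2 gene of HEK293T itself, and each line was a single selected population, described in the methods as monoclonal, so that the EZH2 form and the population cannot be told apart. The comparisons ask which guidance genes differ in RNA level between each mutant and EZH2 WT, between the 2 GOF mutants, and between the GOF mutants and the LOF mutant.

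EZH2 is the enzyme of the Polycomb repressive complex PRC2, which methylates histone H3 at K27, a mark that accompanies silencing of developmental genes. Guidance cues are secreted or membrane-bound proteins that attract or repel growing axons and migrating cells. Semaphorins signal through plexins, with neuropilins as co-receptors for most class 3 semaphorins. Ephrins and Eph receptors signal between touching cells, and can do so in both directions. Slits repel through Robo receptors, and netrins attract or repel through DCC, neogenin and UNC5 receptors. The same genes act in epithelia and vessels, also during kidney development, where SLIT2 and ROBO2 help to place the ureteric bud.

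Against EZH2 WT, 11 of the 64 genes were lower in EZH2 Y641F and 2 were higher, while 12 were lower in EZH2 A677G and 6 were higher, at an adjusted p under 0.05. Unless another test is named, p-values are from the quasi-likelihood test of edgeR, with the Benjamini-Hochberg adjustment taken over every gene tested. Over all 14263 genes tested, EZH2 Y641F had 5.59% lower and 2.09% higher, and EZH2 A677G had 6.48% lower and 2.07% higher. Among the guidance genes the shares were 17.2% and 3.12% in EZH2 Y641F, and 18.8% and 9.38% in EZH2 A677G. All 13 genes called in EZH2 Y641F and all 18 called in EZH2 A677G also had replicates that did not overlap those of EZH2 WT, as did 7.31% and 8.42% of all genes tested. The same 10 genes were lower in both GOF mutants, namely SLIT3, EPHA10, EPHB6, NTN4, EPHA8, PLXNA2, EFNB3, EPHB2, EPHA2 and NRP2, and EPHA7 and SEMA3C were higher in both. Both mutants were compared with the same EZH2 WT libraries, so these overlaps are not independent. The share of all genes tested that were called in both mutants is not given, so counts of genes lower in both have no reference here. The guidance genes had a median log2 fold change of -0.115 (EZH2 Y641F) and -0.0811 (EZH2 A677G), against 0.00251 and 0.00454 over all genes tested. In the LOF mutant 0 guidance genes passed the threshold by this test, where 0.301% of all genes did, 0 passed by DESeq2 and 1 by the exact test of edgeR, with 4 at an unadjusted p under 0.05. The median log2 fold change there was -0.00757. The count of lower genes in EZH2 Y641F was 7 without replicate 2 of EZH2 WT and 6 without replicate 2 or 3 of EZH2 Y641F, and that in EZH2 A677G was 7 without its replicate 2. The count of higher genes in EZH2 Y641F was 1 without replicate 1 or 2 of EZH2 WT or 3 of EZH2 Y641F.

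**Figure D1:**
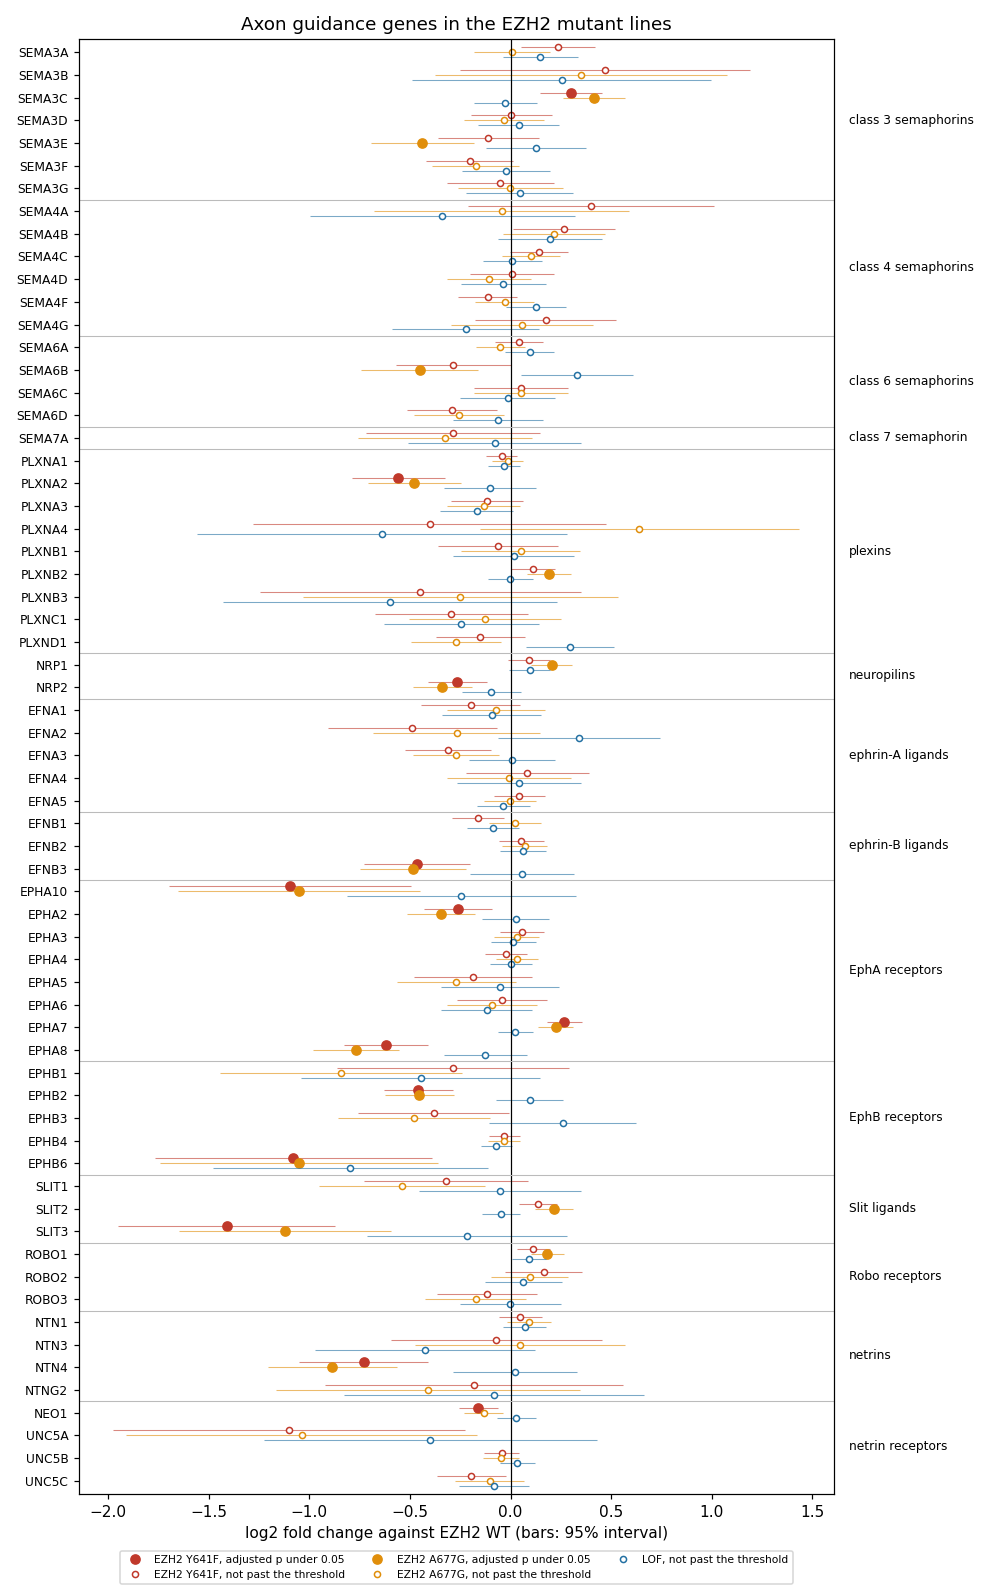
Log2 fold change against EZH2 WT (x axis) of each of the 64 guidance genes (y axis, grouped by family), with 3 points per gene for EZH2 Y641F, EZH2 A677G and the LOF mutant and bars for the 95% interval. Filled points passed an adjusted p of 0.05, and most of them lie left of 0, with SLIT3 the farthest at -1.41 in EZH2 Y641F and no filled point in the LOF mutant.

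For the libraries as a whole, total counts ranged from 32137700 to 44562413. EZH2 itself was at 157.3, 162.8 and 154.3 CPM (counts scaled to a common library size after TMM normalization) in EZH2 WT. It was at 227.8, 208.7 and 216.9 CPM in EZH2 Y641F, 174.0, 164.6 and 181.7 CPM in EZH2 A677G and 207.9, 210.1 and 206.1 CPM in the LOF mutant. The counts do not tell the introduced EZH2 from the cell's own, so they check neither the mutation nor the label. On the first principal component, with 33.7% of the variance, replicate 1 of EZH2 Y641F scored 5.60, while the other GOF libraries scored 15.2 to 17.7 and the EZH2 WT and LOF libraries -16.4 to -13.8. Without that library, EZH2 Y641F had 13 lower and 4 higher guidance genes. All 13 genes called with it were called without it, and EFNA3, UNC5A, ROBO1 and SLIT2 were added.

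The promoters of guidance genes are shown because CpG-dense promoters are a known feature of PRC2 target genes. RefSeq gave a promoter (250 bases before to 50 after the start used there, GRCh38.p14) for 54 of the 64 genes. For some genes, among them EPHB6, PLXNB2, PLXNC1 and ROBO2, that start lies well inside the gene as placed by GENCODE. The CG counts of such genes, and the group values that include them, describe an internal start. The dinucleotide CG, which reads the same on both strands, was counted in each. A promoter was called CpG-rich at an observed to expected CG ratio of at least 0.6 and a GC content of at least 55%. By this measure 68.5% of guidance promoters were CpG-rich, against 76.6% of 10435 promoters of tested genes. It held for 8 of 10 promoters of genes lower in a GOF mutant, 2 of 5 of those higher, and 27 of 39 of the rest. Below are the 30 bases before the start with the most CG (in capitals, 5′ to 3′ on the gene's strand, sequence from RefSeq) for 4 genes that fell in both GOF mutants, EPHA8, EPHB2, SLIT3 and NTN4, and for 3 that rose in EZH2 A677G, SLIT2, EPHA7 and SEMA3C.
EPHA8, chr1:22563448-22563477, plus strand: CGccCGgggCGgCGgCGgCGgCGgCGggCG
EPHB2, chr1:22710687-22710716, plus strand: accCGggctCGCGgCGgCGCGCGgcCGcCG
SLIT3, chr5:169301225-169301254, minus strand: ttcccaacttagtCGacatgaCGCGCGgCG
NTN4, chr12:95791327-95791356, minus strand: agCGgCGaaCGcCGcttagcagttggCGCG
SLIT2, chr4:20251714-20251743, plus strand: gCGcaCGggaaCGCGCGcCGccagcCGcCG
EPHA7, chr6:93419713-93419742, minus strand: gcctCGgacccCGccccCGtggcCGgggCG
SEMA3C, chr7:80922453-80922482, minus strand: acagatttctagaccagacctgtttgacCG
EPHA8 and EPHB2, which lie near each other on chromosome 1, have 51 and 49 CG in their 300 bases. SLIT3 has 22 CG and NTN4 21, fewer than SLIT2 with 36 and EPHA7 with 24. SEMA3C has 2 CG and EPHB6, which fell, has 3 at its internal start. Over all promoters found, the median was 25.5 CG for the 10 genes lower in a GOF mutant, 14 for the 5 higher, 23 for the other 39 and 26 for the tested genes. Whether any of these promoters was bound or methylated was not analysed here.

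The Slit ligands showed the widest split. SLIT2 and SLIT3, both secreted repellents, moved in opposite directions. SLIT3 (chr5:168661740-169301139) was at 2.38, 2.2 and 2.08 CPM in EZH2 WT, 0.903, 0.893 and 0.709 CPM in EZH2 Y641F, 0.785, 0.885 and 1.43 CPM in EZH2 A677G and 2.19, 2.11 and 1.396 CPM in the LOF mutant. All GOF replicates were below all EZH2 WT replicates, while the LOF mutant overlapped EZH2 WT. The log2 fold change was -1.41 ± 0.27 (SE, n = 3 per line) in EZH2 Y641F (edgeR adjusted p = 0.000351) and -1.12 ± 0.26 in EZH2 A677G (edgeR adjusted p = 0.00337). SLIT3 rests on 30 to 52 counts per GOF library and 69 to 88 per EZH2 WT library, and its exons overlap antisense RNAs. SLIT2 (chr4:20251905-20620561), in contrast, was among the most abundant guidance genes, at 225, 206 and 221 CPM in EZH2 WT, 223, 234 and 259 CPM in EZH2 Y641F, 241, 255 and 261 CPM in EZH2 A677G and 196, 216 and 219 CPM in the LOF mutant. Its EZH2 A677G replicates all lay above EZH2 WT and those of EZH2 Y641F overlapped it. The log2 fold change was 0.22 ± 0.046 in EZH2 A677G (edgeR adjusted p = 0.00134) and 0.14 ± 0.046 in EZH2 Y641F (edgeR adjusted p = 0.0627), where it did not pass, though it passed without replicate 1 of EZH2 Y641F (0.18, edgeR adjusted p = 0.00616). SLIT1 did not pass in either mutant (log2 fold change -0.32 and -0.54).

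Of the Robo receptors, ROBO1 (chr3:78597239-79767998), the main Slit receptor by level here, was at 177, 179.7 and 175 CPM in EZH2 WT, 178, 194 and 204 CPM in EZH2 Y641F, 202, 199 and 203 CPM in EZH2 A677G and 181, 195 and 191 CPM in the LOF mutant. It rose in EZH2 A677G, by 0.18 ± 0.041 on the log2 scale (edgeR adjusted p = 0.00235), with all 3 replicates above EZH2 WT. In EZH2 Y641F the change was 0.11 ± 0.041 (edgeR adjusted p = 0.0897), and without replicate 1 it was 0.17 (edgeR adjusted p = 0.00314). ROBO2, which lies 0.947 Mb from ROBO1 on chromosome 3, and ROBO3 did not pass in any mutant.

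Among the netrins NTN4 alone passed the threshold against EZH2 WT, and it was lower in both GOF mutants. NTN4 (chr12:95657807-95791189), a laminin-related netrin of basement membranes, was at 5.68, 5.05 and 5.73 CPM in EZH2 WT, 3.95, 3.41 and 2.55 CPM in EZH2 Y641F, 3.07, 2.65 and 3.18 CPM in EZH2 A677G and 6.06, 5.88 and 4.72 CPM in the LOF mutant. Every GOF replicate was below every EZH2 WT and LOF replicate. NTN4 changed by -0.73 ± 0.16 in EZH2 Y641F (log2, edgeR adjusted p = 0.0017) and -0.88 ± 0.16 in EZH2 A677G (edgeR adjusted p = 0.00016). NTN1, the classical netrin and the most abundant of the family per length, was at 37.7, 37.7 and 38.4 CPM in EZH2 WT, 38.9, 39.6 and 39.1 CPM in EZH2 Y641F, 41.1, 38.8 and 41.5 CPM in EZH2 A677G and 41.1, 37.5 and 40.8 CPM in the LOF mutant. Its log2 fold changes were 0.05 and 0.09 and did not pass, with intervals of -0.06 to 0.16 and -0.02 to 0.20. NTN3 and NTNG2 did not pass in any mutant.

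Among the netrin receptors, NEO1 (neogenin, chr15:73051710-73305205) was at 62.3, 68.6 and 69.05 CPM in EZH2 WT, 60.7, 58.5 and 59.5 CPM in EZH2 Y641F, 60.4, 61.7 and 60.2 CPM in EZH2 A677G and 71.3, 66.1 and 66.7 CPM in the LOF mutant. The GOF replicates all lay below EZH2 WT, by a small margin. Its log2 fold changes were -0.16 ± 0.047 in EZH2 Y641F, which passed (edgeR adjusted p = 0.0279), and -0.13 ± 0.047 in EZH2 A677G, which did not (edgeR adjusted p = 0.0759). The call in EZH2 Y641F was lost without replicate 2 or 3 of either line (-0.16 to -0.14, edgeR adjusted p from 0.0655 to 0.162), and with library totals alone, only the compared groups or the exact test. The one in EZH2 A677G passed with upper-quartile factors, only the compared groups or the exact test (adjusted p from 0.0349 to 0.0431). UNC5B, a repulsive netrin receptor and the most abundant of this family per length, was at 80.2, 82.6 and 80.1 CPM in EZH2 WT, 78.6, 76.3 and 80.6 CPM in EZH2 Y641F, 82.7, 77.5 and 74.5 CPM in EZH2 A677G and 82.3, 82.1 and 84.5 CPM in the LOF mutant. The replicates of each mutant overlapped EZH2 WT, and those of EZH2 Y641F lay below those of the LOF mutant. UNC5A had large fold changes, -1.10 and -1.04, that did not pass (edgeR adjusted p = 0.123 and 0.145) on 2 to 29 counts per library. UNC5C did not pass.

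Eph receptors, the largest family of receptor tyrosine kinases, held 5 of the 10 genes lower in both GOF mutants. They were also numerous among the 64 guidance genes, with 8 EphA and 5 EphB genes. EPHA8 (chr1:22563489-22603595), an ephrin-A receptor of the nervous system, was at 12.8, 12.04 and 13.2 CPM in EZH2 WT, 9.77, 7.56 and 7.38 CPM in EZH2 Y641F, 7.07, 7.397 and 7.87 CPM in EZH2 A677G and 11.5, 11.3 and 12.1 CPM in the LOF mutant. The GOF replicates were below all EZH2 WT and LOF replicates, with replicate 1 of EZH2 Y641F the highest of them. EPHA8 changed by -0.62 ± 0.10 in EZH2 Y641F (log2, edgeR adjusted p = 6.42e-05) and by -0.77 ± 0.10 in EZH2 A677G (edgeR adjusted p = 2.17e-06). EPHB2 (chr1:22710839-22921500), an ephrin-B receptor known from axon crossing and the gut epithelium, starts 0.107 Mb beyond EPHA8 on the same strand. It was at 22.8, 21.8 and 20.7 CPM in EZH2 WT, 17.7, 16.2 and 13.7 CPM in EZH2 Y641F, 14.8, 15.04 and 18.04 CPM in EZH2 A677G and 23.1, 23.1 and 23.7 CPM in the LOF mutant. Again no GOF replicate reached EZH2 WT or LOF. The log2 fold changes were -0.46 ± 0.084 (edgeR adjusted p = 0.000249) and -0.45 ± 0.084 (edgeR adjusted p = 0.000249) in EZH2 Y641F and EZH2 A677G.

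EPHA10 (chr1:37713880-37765133) and EPHB6 (chr7:142855061-142871094), which both lack an active kinase, fell the most among Eph receptors, at low counts. EPHA10 was at 1.57, 1.86 and 1.33 CPM in EZH2 WT, 0.832, 0.735 and 0.662 CPM in EZH2 Y641F, 0.494, 0.688 and 1.15 CPM in EZH2 A677G and 1.43, 1.12 and 1.49 CPM in the LOF mutant. EPHB6 was at 1.41, 1.29 and 1.54 CPM in EZH2 WT, 1.05, 0.368 and 0.568 CPM in EZH2 Y641F, 0.673, 0.344 and 1.04 CPM in EZH2 A677G and 0.758, 0.866 and 0.807 CPM in the LOF mutant. EPHA10 was below EZH2 WT in every GOF replicate but overlapped it in the LOF mutant (0.743 ± 0.0853 CPM in EZH2 Y641F, 0.778 ± 0.338 CPM in EZH2 A677G and 1.35 ± 0.199 CPM in the LOF mutant, means and SD, n = 3), whereas EPHB6 was below EZH2 WT in every replicate of all 3 mutants. EPHA10 changed by -1.10 ± 0.30 and -1.05 ± 0.30 (log2, edgeR adjusted p = 0.0151 and 0.0183). EPHB6 changed by -1.08 ± 0.34 and -1.05 ± 0.34 (edgeR adjusted p = 0.0417 and 0.0454), and by -0.80 ± 0.34 in the LOF mutant, which did not pass (edgeR adjusted p = 0.479). The EPHB6 calls, on 14 to 52 counts per library, were lost without any 1 EZH2 WT replicate, without replicate 2 or 3 of EZH2 Y641F and without replicate 1 or 2 of EZH2 A677G (edgeR adjusted p from 0.0869 to 0.279), and with library totals alone, and by DESeq2 in EZH2 A677G. Those of EPHA10 were lost in EZH2 Y641F without replicate 2 of EZH2 WT or 3 of EZH2 Y641F (-0.96 and -1.02, edgeR adjusted p = 0.105 and 0.0674), and in EZH2 A677G without replicate 1 or 2 of either line (-1.06 to -0.80, edgeR adjusted p from 0.0536 to 0.156).

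EPHA2 (chr1:16124337-16156069), an ephrin-A receptor of epithelia, was at 16.2, 18.9 and 16.7 CPM in EZH2 WT, 15.3, 14.1 and 13.9 CPM in EZH2 Y641F, 13.8, 13.5 and 13.4 CPM in EZH2 A677G and 19.3, 16.8 and 16.7 CPM in the LOF mutant. Its GOF replicates were all below EZH2 WT. The changes were -0.26 ± 0.083 in EZH2 Y641F (log2, edgeR adjusted p = 0.0436) and -0.34 ± 0.083 in EZH2 A677G (edgeR adjusted p = 0.00486). Without replicate 2 of EZH2 WT, its highest, neither passed (-0.19 and -0.28, edgeR adjusted p = 0.299 and 0.0747), and in EZH2 Y641F the call was also lost without EZH2 WT replicate 3 or EZH2 Y641F replicate 2 or 3 (edgeR adjusted p from 0.0616 to 0.148), with library totals, after removal of the GC trend, with only the compared groups and by the exact test. EPHA7 (chr6:93240020-93419687), a repulsive ephrin-A receptor and the most abundant EphA gene per length, went the other way. It was at 94.8, 93.4 and 93.5 CPM in EZH2 WT, 106, 115 and 118 CPM in EZH2 Y641F, 113, 108 and 108 CPM in EZH2 A677G and 93.4, 98.8 and 94.1 CPM in the LOF mutant. All 6 GOF replicates lay above all EZH2 WT and LOF replicates. The rise was 0.27 ± 0.042 (log2, edgeR adjusted p = 2.91e-05) and 0.22 ± 0.042 (edgeR adjusted p = 0.000315). EPHB4, known from veins and the most abundant EphB gene, was at 122, 126 and 117 CPM in EZH2 WT, 117, 120.3 and 119 CPM in EZH2 Y641F, 122, 118 and 116 CPM in EZH2 A677G and 117, 116 and 114 CPM in the LOF mutant, with log2 fold changes of -0.03 and -0.03 that did not pass and intervals of -0.11 to 0.05 and -0.11 to 0.05. EPHA3, EPHA4, EPHA5, EPHA6, EPHB1 and EPHB3 did not pass against EZH2 WT.

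Of 8 ephrin ligands, 1 passed. EFNB3 (chr17:7705202-7711372), an ephrin-B ligand that repels axons at the midline of the spinal cord, was at 8.55, 8.26 and 8.87 CPM in EZH2 WT, 7.75, 5.88 and 4.97 CPM in EZH2 Y641F, 6.51, 5.505 and 6.31 CPM in EZH2 A677G and 9.25, 7.74 and 9.74 CPM in the LOF mutant. The GOF replicates were below EZH2 WT, and replicate 1 of EZH2 Y641F was at the level of the lowest LOF replicate. EFNB3 changed by -0.46 ± 0.13 (log2, edgeR adjusted p = 0.0194) and -0.49 ± 0.13 (edgeR adjusted p = 0.0124). The call in EZH2 Y641F was lost without replicate 1 or 3 of EZH2 WT or 2 or 3 of EZH2 Y641F (-0.46 to -0.32, edgeR adjusted p from 0.0624 to 0.177), and that in EZH2 A677G without its replicate 2 (-0.42, edgeR adjusted p = 0.0902). The most abundant ligands per length, EFNA5 and EFNB1, did not pass. EFNA5 was at 38.6, 36.6 and 36.1 CPM in EZH2 WT, 34.5, 37.1 and 43.1 CPM in EZH2 Y641F, 34.7, 38.6 and 37.8 CPM in EZH2 A677G and 35.9, 36.3 and 36.5 CPM in the LOF mutant. EFNB1 was at 31.3, 33.9 and 28.1 CPM in EZH2 WT, 27.5, 28.9 and 27.1 CPM in EZH2 Y641F, 32.5, 30.99 and 31.3 CPM in EZH2 A677G and 28.8, 28.4 and 30.9 CPM in the LOF mutant. For both the replicates of each mutant overlapped EZH2 WT. EFNA4 and EFNA1, 0.0583 Mb apart on chromosome 1, and EFNA3 between them did not pass, nor did EFNA2 and EFNB2. The counts of EFNA3 and EFNA4 are uncertain because an annotated readthrough transcript shares their exons.

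Class 3 semaphorins, the secreted ones, also moved both ways. SEMA3C (chr7:80742538-80922359), which guides neural crest cells and axons, was at 17.9, 18.3 and 20.8 CPM in EZH2 WT, 24.1, 21.2 and 24.6 CPM in EZH2 Y641F, 25.2, 26.2 and 24.5 CPM in EZH2 A677G and 19.3, 17.2 and 19.6 CPM in the LOF mutant. All GOF replicates exceeded all EZH2 WT and LOF replicates. SEMA3C rose by 0.30 ± 0.076 (log2, edgeR adjusted p = 0.00872) and 0.41 ± 0.075 (edgeR adjusted p = 0.000183). Without replicate 1 or 2 of EZH2 WT or 3 of EZH2 Y641F the call in EZH2 Y641F was lost (0.26 to 0.27, edgeR adjusted p from 0.0592 to 0.0747). SEMA3E (chr7:83363238-83649139), a ligand of PLXND1 that lies 2.44 Mb from SEMA3C, was at 9.04, 9.21 and 10.5 CPM in EZH2 WT, 11.4, 7.72 and 7.47 CPM in EZH2 Y641F, 7.898, 6.41 and 6.83 CPM in EZH2 A677G and 9.98, 10.9 and 10.4 CPM in the LOF mutant. The EZH2 A677G replicates were all below EZH2 WT, while replicate 1 of EZH2 Y641F was the highest of all 12 libraries and the others of that line were low. SEMA3E fell in EZH2 A677G, with a log2 fold change of -0.44 ± 0.13 (edgeR adjusted p = 0.0207), a call lost without EZH2 WT replicate 3 or EZH2 A677G replicate 2 or 3 (-0.42 to -0.37, edgeR adjusted p from 0.0771 to 0.125). In EZH2 Y641F it was -0.11 ± 0.12 and did not pass. SEMA3A, SEMA3B, SEMA3D, SEMA3F and SEMA3G did not pass in any mutant.

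The membrane-bound semaphorins held 1 gene past the threshold, SEMA6B (chr19:4542593-4581776), a class 6 semaphorin that acts through A-type plexins. It was at 6.63, 6.704 and 5.37 CPM in EZH2 WT, 6.04, 4.44 and 4.89 CPM in EZH2 Y641F, 4.71, 4.104 and 4.91 CPM in EZH2 A677G and 7.82, 6.62 and 9.22 CPM in the LOF mutant. The EZH2 A677G replicates were below EZH2 WT and the LOF replicates reached above it. The change was -0.45 ± 0.14 in EZH2 A677G (log2, edgeR adjusted p = 0.041) and -0.28 ± 0.14 in EZH2 Y641F (edgeR adjusted p = 0.267). The call was lost without replicate 1 or 2 of EZH2 WT or any 1 replicate of EZH2 A677G (-0.50 to -0.38, edgeR adjusted p from 0.057 to 0.198). The most abundant genes of the other classes per length did not pass. SEMA4C was at 19.6, 20.9 and 18.9 CPM in EZH2 WT, 23.6, 20.8 and 21.1 CPM in EZH2 Y641F, 21.9, 20.9 and 20.9 CPM in EZH2 A677G and 20.3, 19.7 and 19.8 CPM in the LOF mutant. SEMA6A was at 36.3, 34.8 and 34.99 CPM in EZH2 WT, 36.6, 33.8 and 38.9 CPM in EZH2 Y641F, 35.1, 34.5 and 32.7 CPM in EZH2 A677G and 35.96, 37 and 40.4 CPM in the LOF mutant. SEMA7A, the GPI-anchored semaphorin, was at 2.38, 2.38 and 3.08 CPM in EZH2 WT, 2.59, 1.602 and 2.199 CPM in EZH2 Y641F, 1.77, 2.65 and 1.81 CPM in EZH2 A677G and 2.81, 2.34 and 2.23 CPM in the LOF mutant. In each of these 3 genes the replicates of every mutant overlapped those of EZH2 WT. The class 4 genes ranged in log2 fold change from -0.11 to 0.40 for EZH2 Y641F and -0.11 to 0.22 for EZH2 A677G, and none of the 6 passed.

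Neuropilins and plexins, the semaphorin receptors, held genes in both directions. NRP2 (chr2:205681990-205798133), the co-receptor for SEMA3C and SEMA3F among others, was at 25.2, 22.9 and 21.8 CPM in EZH2 WT, 19.7, 19.01 and 19.5 CPM in EZH2 Y641F, 19.1, 17.6 and 18.6 CPM in EZH2 A677G and 22.4, 20.3 and 22.9 CPM in the LOF mutant. NRP1 (chr10:33177492-33336262), the co-receptor for SEMA3A and for VEGF, was at 43.5, 41 and 43.1 CPM in EZH2 WT, 44.98, 47.3 and 43.8 CPM in EZH2 Y641F, 48.2, 49.6 and 49.4 CPM in EZH2 A677G and 44.3, 45.3 and 46.8 CPM in the LOF mutant. For NRP2 all GOF replicates were below EZH2 WT, and for NRP1 all were above it, as were those of the LOF mutant. NRP2 changed by -0.26 ± 0.072 in EZH2 Y641F (log2, edgeR adjusted p = 0.0165) and -0.34 ± 0.073 in EZH2 A677G (edgeR adjusted p = 0.00147). NRP1 rose in EZH2 A677G by 0.21 ± 0.05 (edgeR adjusted p = 0.00571), and in EZH2 Y641F the change of 0.09 ± 0.051 did not pass. The NRP2 call in EZH2 Y641F was lost without replicate 1 of EZH2 WT or 2 of EZH2 Y641F (-0.21 and -0.25, edgeR adjusted p = 0.158 and 0.055), and the NRP1 call without replicate 2 of EZH2 WT (0.18, edgeR adjusted p = 0.0565).

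PLXNA2 (chr1:208022242-208244384), an A-type plexin, was at 9.12, 10.04 and 9.29 CPM in EZH2 WT, 7.08, 6.46 and 5.79 CPM in EZH2 Y641F, 7.45, 6.22 and 6.75 CPM in EZH2 A677G and 7.87, 9.04 and 9.62 CPM in the LOF mutant. No GOF replicate reached EZH2 WT or LOF. The log2 fold changes were -0.56 ± 0.11 (edgeR adjusted p = 0.000959) and -0.48 ± 0.11 (edgeR adjusted p = 0.00416). PLXNB2 (chr22:50274979-50307646), a receptor of class 4 semaphorins, was at 54.9, 56.7 and 50.1 CPM in EZH2 WT, 58.2, 55.4 and 61.1 CPM in EZH2 Y641F, 58.9, 59.5 and 66.6 CPM in EZH2 A677G and 52.2, 55.5 and 54.1 CPM in the LOF mutant. Its EZH2 A677G replicates were above EZH2 WT, with a change of 0.19 ± 0.054 (log2, edgeR adjusted p = 0.0171) that was lost without replicate 3 of either line (0.14 and 0.13, edgeR adjusted p = 0.143 and 0.198). PLXNA1, the most abundant plexin per length, was at 133, 126 and 133 CPM in EZH2 WT, 129, 125 and 125 CPM in EZH2 Y641F, 130.1, 129.5 and 128 CPM in EZH2 A677G and 124, 129 and 129.6 CPM in the LOF mutant, and its changes of -0.04 and -0.02 did not pass, with intervals of -0.12 to 0.03 and -0.09 to 0.06. The other 6 plexins did not pass against EZH2 WT, and PLXNA4 and PLXNB3 had as few as 5 and 12 counts in a library.

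**Figure D2:**
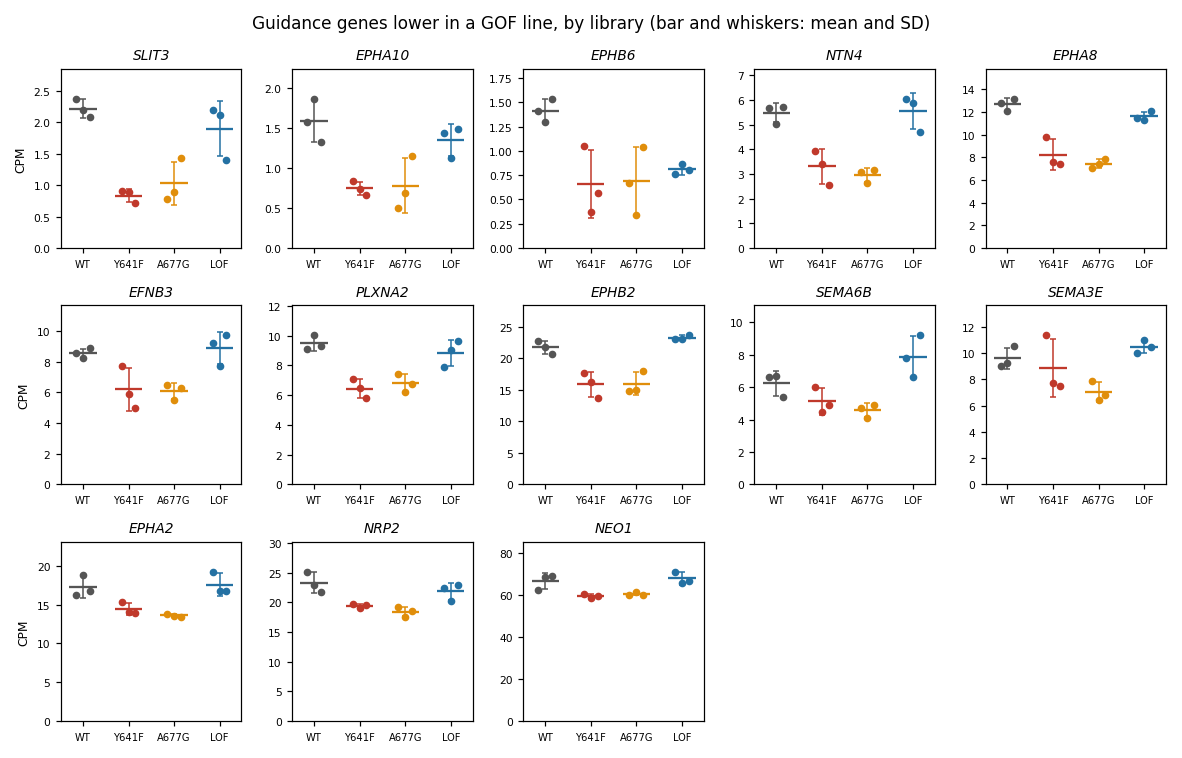
CPM (y axis, from 0) of the 13 guidance genes lower in EZH2 Y641F or EZH2 A677G, with 1 point per library and 3 per line, and a bar and whiskers for mean and SD. In each panel at least 1 GOF line sits wholly below EZH2 WT, and in the EPHB6 panel the LOF mutant does too.

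**Figure D3:**
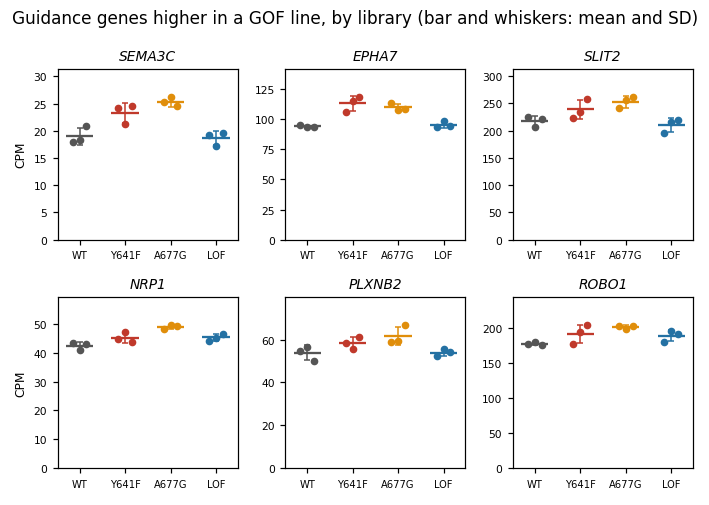
CPM (y axis, from 0) of the 6 guidance genes higher in a GOF mutant, with 1 point per library, 3 per line, and a bar and whiskers for mean and SD. The EZH2 A677G points lie above EZH2 WT in every panel, by margins that are small beside the level itself, as in ROBO1 (201 ± 2.28 CPM against 177 ± 2.34 CPM).

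Levels were compared between genes per kb of the canonical GENCODE transcript. In EZH2 WT, EPHB4 (27.9 ± 0.979 CPM per kb, SD, n = 3), SLIT2 (26.96 ± 1.26 CPM per kb) and ROBO1 (25.6 ± 0.338 CPM per kb) had the highest levels, and the SD of SLIT2 overlapped those of the other two. EPHA7 (14.2 ± 0.116 CPM per kb) and PLXNA1 (14.02 ± 0.467 CPM per kb), which did not differ beyond their SDs, and UNC5B (11.8 ± 0.209 CPM per kb) followed. At the low end were PLXNB3 (0.0882 ± 0.0295 CPM per kb) and PLXNA4 (0.0379 ± 0.00987 CPM per kb). A single gene dominated some families. SLIT2 held 97.7% to 98.9% of the Slit level per kb across the 12 libraries, EPHB4 87.9% to 92.7% of the EphB level and ROBO1 88.0% to 91.4% of the Robo level. The genes higher in a GOF mutant had a median of 12.2 CPM per kb over all libraries, those lower 1.54 and the rest 1.59. Precision follows the level, with a median SE of the log2 fold change in EZH2 Y641F of 0.0485 for the higher genes and 0.123 for the lower ones, so that smaller changes could pass among the higher genes.

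**Figure D4:**
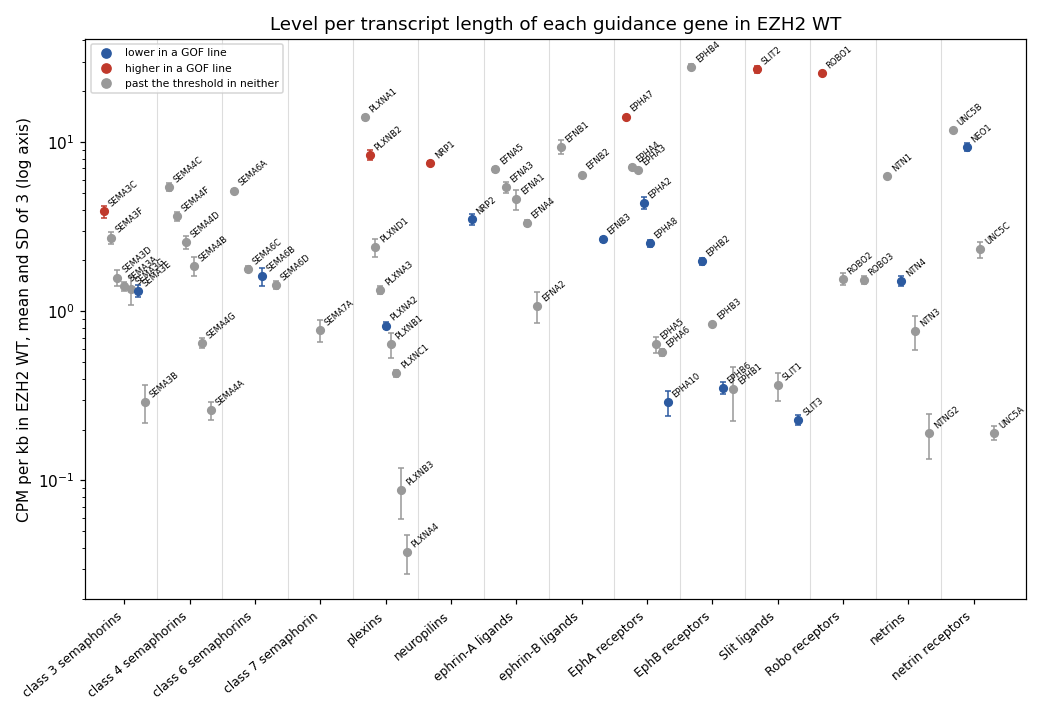
Level in EZH2 WT in CPM per kb of transcript (y axis, log scale, mean and SD of 3 replicates) of the 64 guidance genes, by family (x axis). Genes higher in a GOF mutant (red) are the most abundant of their families or, for PLXNB2, next to it, as SLIT2 at 27.0 CPM per kb, whereas genes lower in a GOF mutant (blue) lie below the most abundant gene of each family.

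Ratios of related genes within each library do not depend on library scaling. These pairs were chosen after the values were seen and were not tested. SLIT2 per SLIT3, in counts per kb, was 114, 113 and 128 in the EZH2 WT libraries, 298, 317 and 440 in those of EZH2 Y641F, 370.0, 348 and 221 in those of EZH2 A677G and 108, 123 and 189 in those of the LOF mutant. NTN1 per NTN4 had a mean of 4.19 ± 0.285 in EZH2 WT (SD, n = 3), 7.42 ± 1.68 for EZH2 Y641F, 8.27 ± 0.499 for EZH2 A677G and 4.40 ± 0.736 for the LOF mutant. EPHA7 per EPHA8 was 5.62 ± 0.251, 10.6 ± 2.10, 11.2 ± 0.855 and 6.23 ± 0.361 in the same order. In these 3 pairs all GOF libraries lay above all EZH2 WT and LOF libraries. NRP1 per NRP2 was 2.16 ± 0.156, 2.76 ± 0.152, 3.14 ± 0.180 and 2.46 ± 0.157. EPHB4 per EPHB2 was 14.2 ± 0.558, 19.2 ± 2.63, 19.0 ± 2.38 and 12.6 ± 0.317. Each ratio was higher in every GOF library than in every EZH2 WT and LOF library. For NRP1 per NRP2 the gap was very small, with 2.65 in replicate 3 of EZH2 Y641F against 2.63 in replicate 2 of the LOF mutant.

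**Figure D5:**
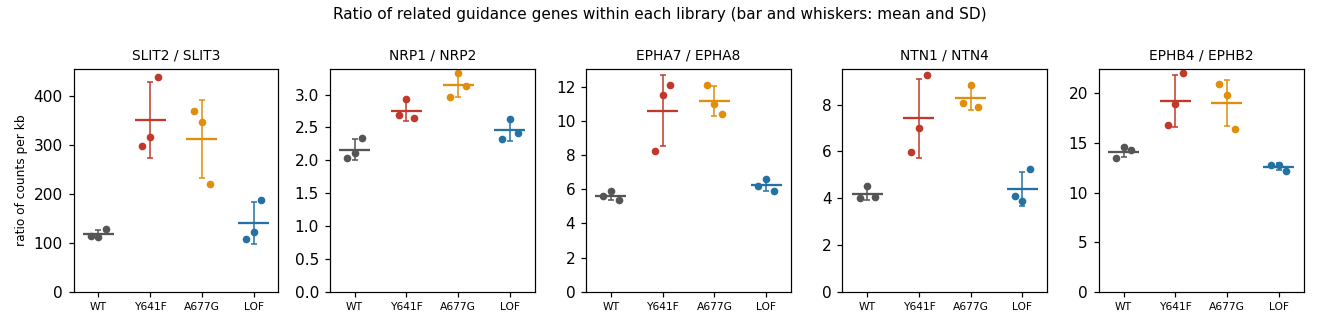
Ratio of 2 related guidance genes in counts per kb (y axis, from 0) in each of the 12 libraries, by line, with a bar and whiskers for mean and SD. In all 5 panels the GOF points lie above the EZH2 WT and LOF points, though barely for NRP1 per NRP2. SLIT2 per SLIT3 is at 221 to 440 in the GOF mutants and 108 to 189 in the others.

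Against EZH2 WT, the gene that passed in the LOF mutant by the exact test of edgeR was PLXND1 (log2 fold change 0.29, adjusted p = 0.0356). The 4 at an unadjusted p under 0.05 were PLXND1 (0.29), SEMA6B (0.33) and ROBO1 (0.09), which were higher, and EPHB6 (-0.80), which was lower, with edgeR adjusted p from 0.388 to 0.527. The median distance from the log2 fold change to the end of its interval was 0.221 over the 64 genes. That interval is not adjusted for the number of genes tested, so it understates the change needed to pass the threshold. PLXND1 (0.29) and SEMA6B (0.33) exceeded 0.221 and did not pass by the quasi-likelihood test. Changes of about 0.221, and some larger ones, were thus not detectable for many of the 64 genes. Of the 13 genes lower in a GOF mutant, 6 had a log2 fold change below 0 in the LOF mutant.

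EZH2 Y641F and EZH2 A677G did not differ past the threshold at any guidance gene by edgeR's quasi-likelihood test (0 of 64, where 0.0841% of all genes passed), by DESeq2 or by the exact test. At an unadjusted p under 0.05 there were 5, EFNB1 (-0.18), NRP1 (-0.11), PLXNA4 (-1.04), SEMA3A (0.23) and SEMA3E (0.33), as log2 difference of EZH2 Y641F from EZH2 A677G, with edgeR adjusted p from 0.530 to 0.660. The genes called in a single GOF mutant, NEO1, SEMA3E, SEMA6B, NRP1, PLXNB2, ROBO1 and SLIT2, are therefore not shown to differ between the mutants.

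With the LOF mutant as the reference, the GOF mutants had on average less RNA of 17 guidance genes and more of 4, where 8.75% of all genes were lower and 3.81% higher. Here 12 of the 13 genes lower than EZH2 WT in a GOF mutant were lower than the LOF mutant too, the exception being EPHB6 (-0.27 ± 0.31, log2, edgeR adjusted p = 0.665). Both comparisons use the same GOF libraries, so this overlap is not independent. The share of all genes tested that were called in both is not given. Replicates of the GOF mutants overlapped those of the LOF mutant for SLIT3, EPHA10, EFNB3 and SEMA3E, and for PLXNB2 among genes that were higher. EPHA7, SEMA3C, SLIT2 and PLXNB2 were higher than in the LOF mutant, but not NRP1 (0.05 ± 0.044) or ROBO1 (0.06 ± 0.036), which in the LOF mutant had log2 fold changes of 0.09 and 0.09 against EZH2 WT. Another 5 genes passed here that had not passed against EZH2 WT. PLXND1, the receptor of SEMA3E, was at 17.2, 18.2 and 14.2 CPM in EZH2 WT, 17.8, 12.6 and 14.3 CPM in EZH2 Y641F, 13.3, 11.2 and 16.6 CPM in EZH2 A677G and 20.8, 20.5 and 19.5 CPM in the LOF mutant. It differed by -0.51 ± 0.093 (log2, edgeR adjusted p = 0.00013), and its LOF replicates lay above every other library. EFNA2 differed by -0.72 ± 0.17 (edgeR adjusted p = 0.00304), EPHB3 by -0.69 ± 0.16 (edgeR adjusted p = 0.00171), EFNA3 by -0.30 ± 0.091 (edgeR adjusted p = 0.0235) and SEMA4F by -0.20 ± 0.062 (edgeR adjusted p = 0.0284). For all 5 genes the LOF mean was above EZH2 WT and the GOF means below it, at 9.87 ± 0.434 CPM against 9.82 ± 0.723 CPM for EFNA3, 3.304 ± 0.203 CPM against 2.605 ± 0.526 CPM for EFNA2 and 4.22 ± 0.937 CPM against 3.54 ± 0.0758 CPM for EPHB3 in the LOF mutant and EZH2 WT. Leaving out replicate 1 of the LOF mutant lowered the count of lower genes to 11, with the calls of EFNA3, EPHA10, EPHB3, NEO1, NRP2 and SEMA4F lost (edgeR adjusted p from 0.0604 to 0.131), and that of PLXNB2 was lost too (0.13, edgeR adjusted p = 0.156). Without other single libraries calls were lost for EFNA3 and SEMA4F (LOF replicate 2 or 3, EZH2 Y641F replicate 3, and EZH2 A677G replicate 2 for EFNA3 or 1 for SEMA4F), EPHA10 (LOF replicate 3, EZH2 A677G replicate 1 or 2), NRP2 (LOF replicate 3, EZH2 A677G replicate 2), PLXNB2 (replicate 3 of the LOF mutant, EZH2 Y641F or EZH2 A677G) and SEMA3E (LOF replicate 2), with edgeR adjusted p from 0.0503 to 0.154.

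Other genes of the guidance pathways were followed as 2 lists, 38 further ligands, co-receptors and adhesion molecules, of which 25 were tested, and 57 intracellular effectors, all tested. In the ligand and adhesion list 9 genes fell and 1 rose in EZH2 Y641F, 9 fell in EZH2 A677G, and 8 were lower in both GOF mutants. Of the 25 genes 36% were thus lower in each, against 5.59% and 6.48% of all genes tested. NFASC, an adhesion molecule of the axon initial segment, changed by -1.15 ± 0.29 and -1.27 ± 0.30 (log2, SE, EZH2 Y641F and EZH2 A677G), CNTN1, a contactin, by -0.62 ± 0.10 and -0.89 ± 0.11, and BOC, a co-receptor of Hedgehog in guidance, by -0.63 ± 0.12 and -0.67 ± 0.12. LRRC4B (-0.54 and -0.75), NCAM1 (-0.66 and -0.51) and PTPRD (-0.54 and -0.50) were also lower. Of the effectors 5 fell and 3 rose in each GOF mutant, or 8.77% and 5.26%, against the shares of all genes tested (5.59% and 6.48% lower, 2.09% and 2.07% higher). DPYSL3 and DPYSL2, collapsin response mediator proteins that act downstream of semaphorins, changed by -0.88 ± 0.049 and -0.89 ± 0.049, and by -0.43 ± 0.053 and -0.39 ± 0.053. VAV3, an exchange factor downstream of Eph receptors, changed by -0.46 ± 0.12 and -0.55 ± 0.12. RND2 (0.26 and 0.27) and PTK2, the focal adhesion kinase (0.16 and 0.17), rose in both. In the LOF mutant DPYSL3 alone of both lists passed, with a log2 fold change of -0.27 ± 0.048 (edgeR adjusted p = 0.00305). Without replicate 2 of EZH2 WT the higher genes of both lists together numbered 0 in place of 4 in EZH2 Y641F and 1 in place of 3 in EZH2 A677G. They were 1 in EZH2 Y641F without replicate 1 of either line and 2 without replicate 3 of EZH2 WT or 2 of EZH2 Y641F, and 1 in EZH2 A677G without its replicate 1. Against the LOF mutant the GOF mutants were on average lower at 16 genes of both lists and higher at 7. In the ligand and adhesion list 36% of the 25 genes were lower and 4% higher. Among the 57 effectors 12.3% were lower and 10.5% higher. Over all genes tested the shares were 8.75% and 3.81%. Of the 7 higher genes, 1 was left without replicate 1 of the LOF mutant and 4 without its replicate 2. The median log2 fold changes against EZH2 WT were -0.282 and -0.183 in the ligand list and 0.0137 and 0.0199 in the effector list, against 0.00251 and 0.00454 over all genes.

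Markers of cell types were read beside these genes, since in bulk RNA fewer cells of a type and less RNA per cell cannot be told apart. Of 12 neuronal markers 6 had a row, and MAP2, ELAVL3, ELAVL4, STMN2, SNAP25 and DCX were not analysed here. Their summed level was 329.4 to 350.3 CPM over the EZH2 WT libraries, 202.1 to 245.8 CPM over EZH2 Y641F, 167.9 to 191.4 CPM over EZH2 A677G and 278.4 to 283.8 CPM over the LOF mutant, most of it from the neurofilament genes NEFM and NEFL. Past the threshold, 4 markers were lower in EZH2 Y641F, 3 with EZH2 A677G and 2 for the LOF mutant. TUBB3 (-0.27, -0.06 and 0.02, log2 fold changes in the same order) and SYP (-0.19, -0.22 and -0.15) did not pass in any mutant. The summed level was below EZH2 WT in all 3 mutants.

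Some kidney epithelial, fibroblast, blood cell and endothelial markers also differed between lines. Of 10 embryonic kidney epithelial markers 8 had a row, with KRT19 and PAX8 not analysed here. KRT18, a keratin of simple epithelia, was at 34.2 ± 1.97 CPM in EZH2 WT (SD, n = 3), with 34.3 ± 2.27, 32.9 ± 2.71 and 37.7 ± 1.56 CPM for EZH2 Y641F, EZH2 A677G and the LOF mutant, and did not pass against EZH2 WT. It was lower in the GOF mutants on average than in the LOF mutant (-0.17 ± 0.055, log2, SE, edgeR adjusted p = 0.0348). KRT18 alone of this list is described, so it does not stand for the other kidney epithelial markers. Fibroblast markers, of which 5 of 8 had a row, summed to 14.3 to 15.8 CPM in EZH2 WT and, in the same order of mutants, 17.7 to 27.4, 15.8 to 17.6 and 15.5 to 19.1 CPM. COL3A1, a fibrillar collagen, rose in both GOF mutants (1.34 and 0.93, edgeR adjusted p = 2.55e-07 and 0.000148). LUM rose in EZH2 Y641F (0.90, edgeR adjusted p = 0.0218) but not in EZH2 A677G (0.02). The other fibroblast markers did not pass, with log2 fold changes in EZH2 Y641F and EZH2 A677G of 0.003 and -0.33 for COL1A1, -0.11 and -0.12 for PDGFRA and -0.81 and -0.75 for PDGFRB. Blood cell markers, of which 3 of 7 had a row, summed to 32.7 to 34.1 CPM in EZH2 WT and 37.2 to 44.5, 35.9 to 39.6 and 42.5 to 47.9 CPM in the mutants, most of it from LCP1, while PTPRC, which defines blood cells, was not analysed here. LCP1 rose in EZH2 Y641F and the LOF mutant (0.24 and 0.43, edgeR adjusted p = 0.0177 and 0.000822). Endothelial markers, of which 2 of 10 had a row, summed to 1.06 to 1.69 CPM in EZH2 WT and 0.788 to 0.851, 0.521 to 0.808 and 0.917 to 1.12 CPM in the mutants, with PECAM1 and CDH5 not analysed here. KDR, the VEGF receptor, fell in both GOF mutants (-1.41 and -1.24, edgeR adjusted p = 0.0276 and 0.0494). The part of these shifts in the changes of guidance genes was not tested.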

How the data were processed

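For 12 poly-A RNA libraries the authors deposited a table of raw counts, whole numbers without normalization, with 1 row per gene symbol. Per the study's methods and the submitters' processing notes, libraries came from a stranded TruSeq mRNA kit, and reads were trimmed with Trim Galore 0.6.5, aligned to GRCh38 with STAR 2.7.9a and quantified with Salmon 1.2.0 against GENCODE. The steps from Salmon to whole counts per symbol, the filter on genes and the use of strand are not given in the sources used here, so overlapping and antisense genes may share reads. The authors used edgeR 3.16 for their own tests, which were not read here.

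The counts were fitted with edgeR 4.0.16 under R 4.3.3 (TMM, quasi-likelihood test, all 12 libraries in 1 fit with 1 coefficient per line). The 175 genes at 0 in every replicate of a line were left out, and the other 14263 all passed filterByExpr and were tested. The Benjamini-Hochberg adjustment was taken over all of them, with a threshold of 0.05. The common biological coefficient of variation was 0.0471. In place of the exact test of the study's methods, which was run as an alternative, the quasi-likelihood test was used so that all lines share 1 estimate of the spread. Other alternatives were DESeq2 1.42.0, upper-quartile factors, library totals, removal of each library's GC trend (13920 genes with a known GC content), only the compared groups, no filter, at least 10 counts in every library, the replicate number as a block, a minimum log2 fold change of 1 in size, and leaving out each library in turn. The procedure was tested on simulated counts.

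Positions and lengths came from GENCODE (GRCh38), to which symbols were matched, 13272 by name and 809 through a RefSeq synonym, with 357 unmatched. Promoters came from RefSeq (GRCh38.p14). The labels number replicates without naming separate cultures, so p-values measure the spread between these libraries. No pair of replicates agreed within sampling noise (chi-square per degree of freedom of 3.33 to 14.8).

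Genes given with the value in every library are those past the threshold against EZH2 WT in a mutant with no overlap of replicates, and the gene with the highest level per kb in each family. Other genes past a threshold are named with their log2 fold changes, and of the other guidance genes up to 6 per list with the largest mean change among those past the threshold in both GOF mutants. The guidance genes, the other lists and the tests were chosen with earlier results of these data known. A marker gene and the summed level of its list are not reported here.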

Additional observations from a re-analysis of the deposited data

Results flagged for a closer look

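At 21 guidance genes the mean effect of the GOF mutants differed from the effect of the LOF mutant by edgeR's test of that difference. EZH2 WT cancels in it, so it is the comparison with the LOF mutant given above and not a further result. Over all genes tested 8.75% were lower and 3.81% higher, against 26.6% and 6.25% of the guidance genes. The log2 differences (mean of EZH2 Y641F and EZH2 A677G minus LOF mutant) were negative at 17 genes. Among Slit and netrin genes they were -1.05 for SLIT3, -0.83 for NTN4 and -0.18 for NEO1. Among Eph receptors they were -0.83 for EPHA10, -0.69 for EPHB3, -0.57 for EPHA8, -0.55 for EPHB2 and -0.33 for EPHA2, and among ephrins -0.72 for EFNA2, -0.53 for EFNB3 and -0.30 for EFNA3. Among semaphorins and their receptors they were -0.70 for SEMA6B, -0.40 for SEMA3E, -0.20 for SEMA4F, -0.51 for PLXND1, -0.41 for PLXNA2 and -0.21 for NRP2. They were positive at 4 genes, 0.38 for SEMA3C, 0.22 for EPHA7, 0.22 for SLIT2 and 0.15 for PLXNB2. For EPHB6, which fell in both GOF mutants, the difference from the LOF mutant was -0.27 and did not pass.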

How the results depend on the processing

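Of 52 calls of single guidance genes over the comparisons, 46 held in every other setting apart from the minimum fold change, 29 held also in every fit without 1 library, and 0 changed direction. The calls lost in other settings were those of EPHA2, EPHB6 and NEO1 in EZH2 Y641F, EPHB6 in EZH2 A677G, and PLXNB2 (upper-quartile factors) and SEMA4F (library totals) between the GOF and LOF mutants, with edgeR or DESeq2 adjusted p from 0.052 to 0.0872. The cause was not tested. Calls rest on small fold changes. At a log2 fold change of at least 1, 3 guidance genes were left as lower in EZH2 Y641F, 3 in EZH2 A677G and 1 against the LOF mutant, and 0 as higher in each, and of the other guidance genes 1, 2 and 2 were left as lower, 0 in the LOF mutant and 0 as higher. The exact test of edgeR called 1 guidance gene higher in the LOF mutant, 10 lower in EZH2 Y641F, with UNC5A added (adjusted p = 0.0462), and 17 lower in EZH2 A677G, with EPHB1, EPHB3, NEO1, SLIT1 and UNC5A added (adjusted p from 0.0201 to 0.0350). It could not be run on the mean of the GOF mutants against the LOF mutant, a contrast of 3 lines. Of the other guidance genes, 2 were higher in EZH2 Y641F with upper-quartile factors and by the exact test and 1 with only the compared groups, 5 were higher in EZH2 A677G with only the compared groups and by the exact test, and 2 were lower in the LOF mutant after removal of the GC trend, with or without the block, with only the compared groups and by the exact test.

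Without 1 library, the lower and higher guidance genes numbered 6 to 13 and 1 to 4 in EZH2 Y641F, 7 to 11 and 5 to 6 in EZH2 A677G, 11 to 17 and 3 to 4 between the GOF and LOF mutants, and 0 to 0 in the LOF mutant and between the GOF mutants. The other guidance genes numbered 11 to 13 and 0 to 3 in EZH2 Y641F, 13 to 14 and 1 to 3 in EZH2 A677G, 14 to 17 and 1 to 10 between the GOF and LOF mutants, 1 to 1 lower in the LOF mutant and 0 to 1 lower in EZH2 Y641F than in EZH2 A677G.

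Same-numbered libraries did not deviate together (correlations from -0.056 to 0.050), so the numbers do not pair the samples. With the replicate block, EZH2 Y641F had 11 lower and 3 higher guidance genes, with SLIT2 added (adjusted p = 0.0378), and 12 and 6 in EZH2 A677G. Low counts per library limit what could be seen for EPHB6, UNC5A, PLXNA4 and PLXNB3.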
